A study of Mus musculus with 9 samples.

Results

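The lysosome genes described here are 50 of the 12339 genes measured in KP-GFP tumour cells of C57BL/6 background that were sorted from spheroids. They comprise 31 genes chosen by name, which encode lysosomal hydrolases, lysosomal membrane proteins and their transcription factors, and 19 genes chosen because their symbol begins with Atp6v or Atp6ap, the subunits and accessory proteins of the vacuolar proton pump (V-ATPase). Ctse was left out by the same rule. The study has 3 groups of 3 libraries each: KP-GFP cells alone, KP-GFP cells together with alveolar macrophages of the lung, which the labels call TRMs, and together with bone-marrow monocytes. All groups share the same tumour cells, which carry green fluorescent protein (GFP), and the design asks what either myeloid population does to the cancer cells. Each spheroid was started from 2500 KP-GFP cells, with 5000 TRMs or monocytes in the co-cultures, and grown for 7 days. Pools of 32 spheroids per condition were dissociated and GFP-positive cells sorted for RNA, so every library is a pool and the tumour cells are 1 line grown outside the animal. The labels do not say that replicates came from separate cultures, so the p-values measure the spread between these libraries, which may be technical.

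Lysosomes are acidic compartments in which cathepsins and other proteases, glycosidases and lipid hydrolases break down material delivered by endocytosis and autophagy. The V-ATPase acidifies them: its peripheral V1 sector hydrolyses ATP, and its membrane V0 sector carries protons across. Many genes of this group hold an E-box-like motif near their start that is bound by TFEB, TFE3 and MITF, transcription factors that the kinase complex mTORC1 holds in the cytoplasm when nutrients are plentiful. Tumour cells and macrophages both secrete cathepsins, which can act on extracellular matrix.

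The motif is shown here because it links the transcription factors measured below to the genes they are known to bind. RefSeq promoter sequences (assembly GRCm38.p6, 250 bases before to 50 bases after each start) matched 40 of the 50 genes. Asah1, Atp6v0a2, Atp6v0d2, Atp6v1b2, Atp6v1c1, Atp6v1g1, Atp6v1h, Ctsb, Ctsh and Npc1 had no entry. The 8-base palindrome TCACGTGA was present in 7 of the 40 (17.5%), namely Ctsa, Ctsd, Mcoln1, Gla, Atp6v1a, Atp6v0d1 and Atp6v0e. This stands against 2.14% of the 9775 genes of the table with an entry and 1.12% of all 27025 genes with an entry. The shorter core CACGTG, which lies inside the longer motif and was searched on both strands, was present in 13 of the 40 (32.5%), against 11.4% and 8.09%. Lamp1 holds the core 4 times within its window. Such a match is a description of the sequence and does not show that a factor was bound. The stretches below run 5′ to 3′ on the gene's strand with the motif in capitals, and positions count the first transcribed base as 1. A gene with several entries was counted if any of them held a match. Ctsa, the one gene of the 7 that was called in either co-culture, has 2 entries. The entry at its annotated start (chr2:164832622-164832921) holds no match, and the entry at a start further downstream holds the motif at -13 (chr2:164833740-164833772, + strand) and again at 5 (chr2:164833769-164833792). Ctsd holds it at -99 (chr7:142387899-142387946, - strand) and Mcoln1 at -46 (chr8:3500453-3500500, + strand), and neither was called. Ctsl, a called gene, holds the core alone at -236 (chr13:64370731-64370770, - strand).
Ctsa, upstream match: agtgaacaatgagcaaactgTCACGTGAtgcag
Ctsa, downstream match: gcagatgcTCACGTGAccagagct
Ctsd: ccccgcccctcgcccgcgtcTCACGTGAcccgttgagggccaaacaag
Mcoln1: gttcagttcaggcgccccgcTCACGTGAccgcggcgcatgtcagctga
Ctsl: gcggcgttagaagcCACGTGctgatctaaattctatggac

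Depth was between 16001895 and 32771448 reads per library over the genes of the table, and every one of the 50 genes passed the filter on low counts, with at least 136 reads in total. Levels are given as CPM scaled for library composition, in the order replicate 1, 2 and 3. A gene was called at an adjusted p under 0.05 in limma's test over all 12326 genes tested. The listed epithelial markers were abundant in every library, with Krt8 between 3386 and 5340. Of 32 listed macrophage and monocyte markers, 12, among them Adgre1, Marco and Tyrobp, were not analysed here. Summed over the other 20, the level was 216 to 304 without added cells, 205 to 376 for TRM co-cultures and 211 to 305 for monocyte co-cultures, most of it Cd14. None of the 20 was at 0 reads in all libraries of a group, and Csf1r lay between 2.25 and 6.73. Mrc1 and F13a1 were called higher in both co-cultures, Mrc1 at 4.98 to 5.37 alone, 22.4 to 39.8 with TRMs and 34.6 to 47.9 with monocytes. With monocytes 4 of the 20 were called lower (Ptprc, Siglecf, Chil3 and Plac8), beside 12.7% of all genes. Of 8 epithelial markers tested, 3 (Cdh1, Cldn4 and Cldn7) were also called lower with monocytes, beside 12.7% of all genes. The 8 markers summed to 10430, 11590 and 16400 in monocyte replicates 1, 2 and 3, and to 15160 to 16980 in cells alone. With TRMs Cldn4 was called lower, but not with edgeR (adjusted p = 0.0705) nor with either of alone replicates 1 and 3, either of TRM replicates 2 and 3, or monocyte replicate 2 left out (limma adjusted p 0.0619 to 0.188). With monocytes the calls of Ptprc, Siglecf and Plac8 were each lost without alone replicate 1 (0.0702 to 0.138), alone replicate 3 (0.052 to 0.164) or monocyte replicate 1 (0.0617 to 0.0905), and those of some also without another library or with another tool. The Chil3 call with monocytes was lost with limma-voom (adjusted p = 0.0728). Monocyte replicate 1 also had the lowest mitochondrial share of reads (0.288%, others 0.316 to 0.667%). The part of these markers in the results was not tested. Because each library is a bulk sample, fewer cells of a type and less RNA per cell cannot be told apart.

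Few of the 50 genes changed, and they changed in both directions. With TRMs, 4 genes rose (Ctsc, Ctsl, Npc2 and Tfe3), against 10.2% of all genes, and 3 fell (Ctsa, Atp6ap2 and Atp6v1h), against 8.15% of all genes. The other 43 were not called. With monocytes, 6 genes rose (Cd63, Gusb, Npc2, Smpd1, Tfe3 and Atp6v0a2), against 14.7% of all genes, and 7 fell (Ctsa, Ctsh, Neu1, Atp6ap2, Atp6v1c1, Atp6v1e1 and Atp6v1h), against 12.7% of all genes. The other 37 were not called. The share of the 50 genes called was thus 14.0% with TRMs and 26.0% with monocytes, below and near the background in these cells. The median log2 fold change of the 50 genes was -0.07 with TRMs and -0.09 with monocytes, beside -0.0019 and -0.016 for all genes tested. Of the 50 genes, 39 lay within 0.5 log2 units of no change with TRMs and 35 with monocytes. This share was not taken over all genes, so it is not a trait of the 50. Those outside it in both co-cultures include Ctsf, Ctss, Atp6v0a4 and Atp6v0c, whose mean levels were under 5. Groups did not overlap for 19 of the 50 genes (38.0%) with TRMs, beside 39.3% of all genes, and for 21 (42.0%) with monocytes, beside 40.5%. Ctsa, Npc2, Tfe3, Atp6ap2 and Atp6v1h were called in both co-cultures and each in 1 direction, but both comparisons share the same 3 libraries of cells alone.

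The count of calls depended on single libraries, except that of genes that fell with TRMs, which stayed at 2 to 3. With TRMs, the number of genes that rose went from 4 to 1 without alone replicate 1 or TRM replicate 2, and to 2 without alone replicate 3 or TRM replicate 3. With monocytes, the number that rose went from 6 to 2 without alone replicate 1, monocyte replicate 1 or monocyte replicate 2. The number that fell with monocytes went from 7 to 2 without monocyte replicate 1 and to 3 without alone replicate 2 or 3. It went to 4 without alone replicate 1 or TRM replicate 2, and to 3 when the TRM libraries were left out altogether. The genes behind these counts also changed. Of the 2 that fell without monocyte replicate 1, only 1 was among the original 7. Without monocyte replicate 2 the count stayed at 7, but only 4 of the original calls were kept. Calls over all genes with TRMs also dropped, to 825 higher and 617 lower without alone replicate 1, 855 and 536 without alone replicate 3, and 670 and 547 without TRM replicate 2. Those with monocytes dropped from 1806 higher and 1560 lower to 1281 and 1045 without alone replicate 1. They were 1297 and 943 without alone replicate 3, and 1487 and 1243 without monocyte replicate 1. Library totals in place of composition scaling moved the split over all genes with TRMs from 1257 higher and 1005 lower to 1003 higher and 1302 lower, and left 2 of the 50 genes higher, Npc2 and Tfe3, and 3 lower.

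**Figure D1:**
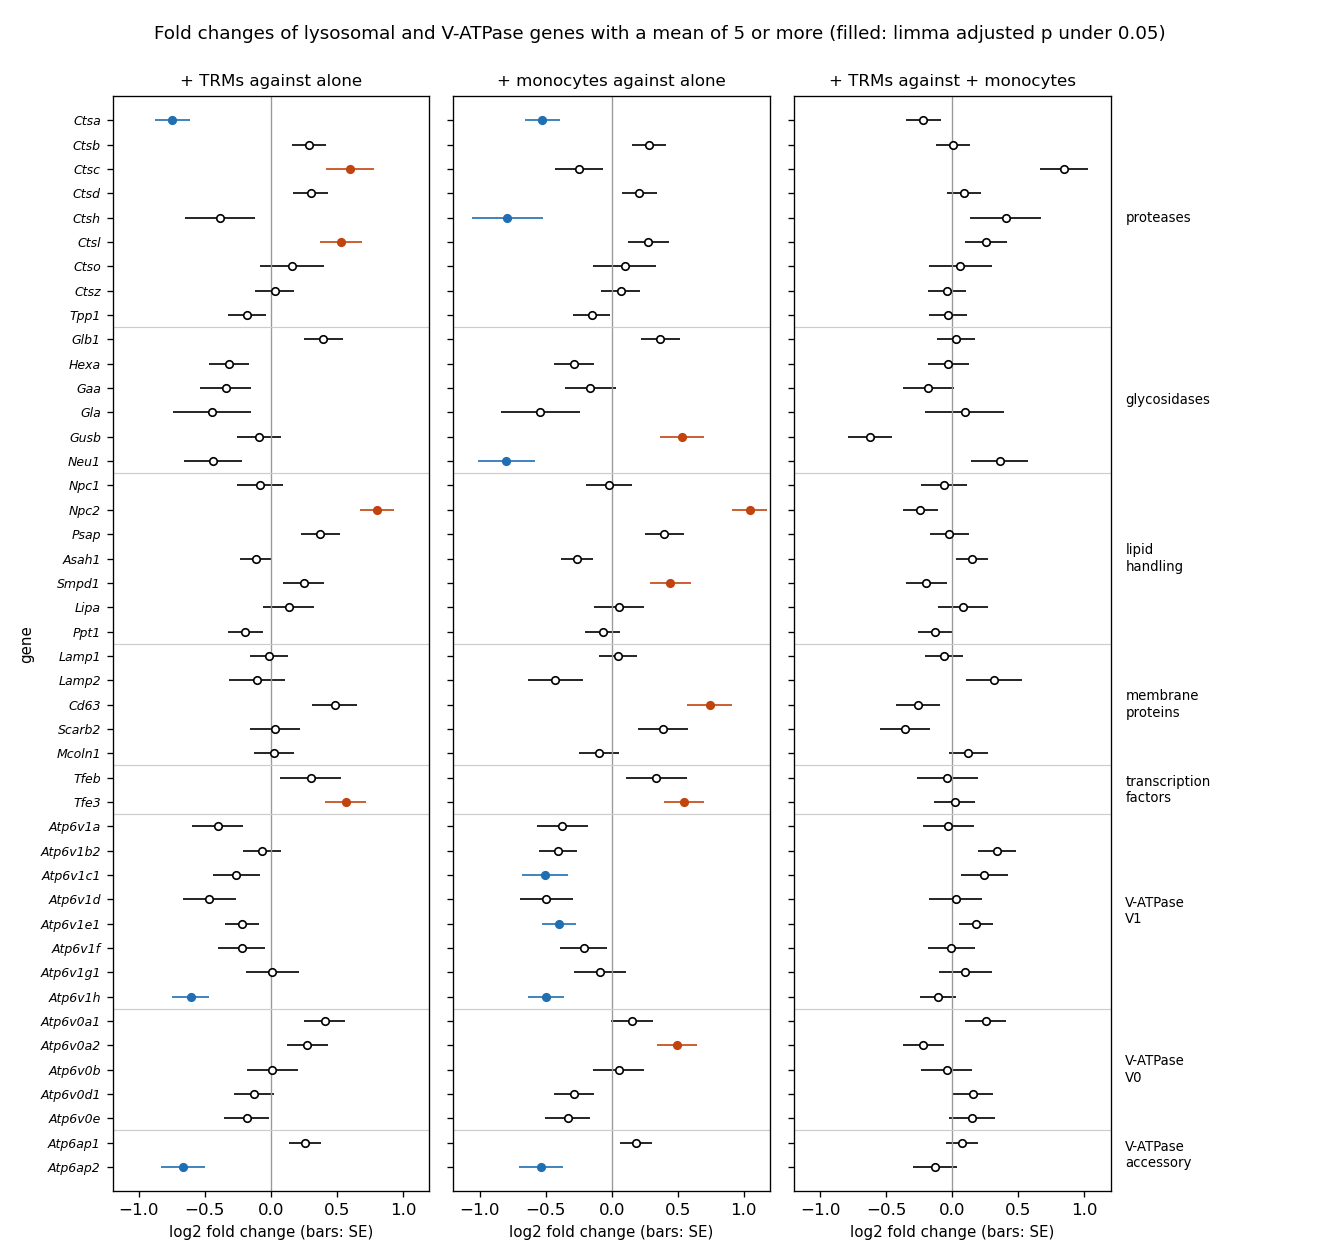
The log2 fold change of each lysosomal or V-ATPase gene with a mean of at least 5 is plotted by role for 3 comparisons, with bars for limma's SE and filled points for genes at an adjusted p under 0.05. V1 subunits lie below 0 in both co-cultures except Atp6v1g1 with TRMs, Npc2 has the highest fold change of the genes drawn in both, and no point is filled between the co-cultures.

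Among the 11 proteases, Ctsa fell in both co-cultures, Ctsc and Ctsl rose with TRMs, and Ctsh fell with monocytes. Ctsa, the serine carboxypeptidase that also protects beta-galactosidase and neuraminidase within the lysosome (chr2:164832873-164841032, GRCm38), was at 218, 200.4 and 202 in cells alone, 128, 132 and 111 with TRMs, and 160.2, 129 and 144 in monocyte co-culture. All 6 co-culture libraries lay below all 3 of cells alone. The fall was 1.68-fold with TRMs (log2 -0.75, SE 0.13, limma adjusted p = 0.00174) and 1.44-fold with monocytes (log2 -0.53, limma adjusted p = 0.00987), and both calls held in every alternative run. Part of the Ctsa exon sequence (11.6% of its 50-base stretches) is shared with other annotated genes, most with the overlapping Pltp, whose reads cannot be told apart where strand is not recorded.

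Ctsc, the dipeptidyl peptidase that activates granule serine proteases, was at 101, 132 and 112 in cells alone and at 148, 164 and 212 with TRMs, with no overlap. It was 1.51-fold higher with TRMs (log2 0.60, SE 0.18, limma adjusted p = 0.0343). With monocytes it was at 79.4, 119 and 93.9, overlapping cells alone (log2 -0.25, limma adjusted p = 0.337). The TRM call did not hold with alone replicate 1 or 3 or TRM replicate 2 or 3 left out (limma adjusted p 0.082 to 0.145), nor with library totals (0.0583).

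Ctsl, a cysteine endopeptidase that cuts many lysosomal and secreted substrates, was at 539.6, 682 and 474 in cells alone and at 945, 806 and 693 with TRMs, again with no overlap. It was 1.45-fold higher (log2 0.53, SE 0.16, limma adjusted p = 0.032), but did not pass with alone replicate 1 or 3 or TRM replicate 1 or 2 left out (limma adjusted p 0.0939 to 0.157), nor with library totals (0.07). With monocytes it was at 681, 675 and 677, a narrow range whose values overlapped the highest library of cells alone (log2 0.28, limma adjusted p = 0.215). Ctsl shares 26.3% of its 50-base stretches with other annotated genes, most with Gm47123, so part of its count is uncertain.

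Ctsh, an aminopeptidase of the cathepsin family that matures surfactant proteins in lung epithelium, was at 249.7, 211 and 235.5 in cells alone and at 83.1, 125 and 231 with monocytes. The first 2 monocyte libraries were low and the third lay within the range of cells alone. The fall (log2 -0.79, SE 0.27, limma adjusted p = 0.0426) was lost with edgeR's quasi-likelihood test (adjusted p = 0.0947), with those 2 groups alone (limma adjusted p = 0.0691), without any one of the 3 libraries of cells alone, without TRM replicate 2 or 3, and without monocyte replicate 1 or 2 (limma adjusted p 0.0553 to 0.164). With TRMs it was at 202, 158 and 174 (log2 -0.38, limma adjusted p = 0.359).

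Per kilobase of exon Ctsd, Ctsl and Ctsb were the most abundant cathepsins (mean levels 205, 106 and 86.4), although Ctsd shares 32.4% and Ctsb 12.1% of their 50-base stretches with other annotated genes, most with Gm49369 and Fdft1. Ctsb, a cysteine protease often studied in tumour invasion, was at 432, 494 and 442 in cells alone, 509.8, 598 and 564 with TRMs, and 510.4, 606 and 547 in monocyte co-culture, so groups did not overlap, but limma's adjusted p was 0.143 and 0.125. Ctsd, the main aspartyl protease, was at 396, 480.0 and 408 in cells alone, between 482 and 585 with TRMs, and between 476 and 506 with monocytes (limma adjusted p 0.132 and 0.254). Ctsz, Ctso and Tpp1 were not called and had log2 fold changes between -0.18 and 0.16 in both co-cultures. Ctss, a protease typical of antigen-presenting cells, stayed between 0.29 and 4.47 in all 9 libraries, and Ctsf between 0.135 and 2.66.

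The 6 glycosidases gave no call with TRMs, where 10.2% of all genes were called higher and 8.15% lower. With monocytes 1 of the 6 was called higher and 1 lower, beside 14.7% and 12.7% of all genes. Neu1, the sialidase whose stability depends on Ctsa, was at 96.8, 104 and 84.4 in cells alone, 90.1, 61.6 and 61.1 with TRMs, and 41.8, 50.3 and 76.7 in monocyte co-culture. All 3 monocyte libraries lay below cells alone, the third by a small margin. The fall with monocytes was log2 -0.80 (SE 0.22, limma adjusted p = 0.0152) and was lost without monocyte replicate 1 (0.0631) or 2 (0.053). With TRMs the difference was log2 -0.44 (limma adjusted p = 0.187).

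Gusb, the beta-glucuronidase that degrades glycosaminoglycans, was at 40.2, 45.2 and 43.7 in cells alone and at 68.6, 68.6 and 50.8 with monocytes, without overlap (log2 0.53, SE 0.17, limma adjusted p = 0.0301). With TRMs it was at 44.1, 42.5 and 35.0 (log2 -0.09, limma adjusted p = 0.757). The monocyte call did not hold with alone replicate 1 or 3 or monocyte replicate 1 or 2 left out (limma adjusted p 0.0785 to 0.105). Glb1, the beta-galactosidase, had values of 49.0 to 55.6 alone, 62.4 to 76.5 with TRMs and 61.7 to 75.1 with monocytes, which did not overlap, with limma adjusted p of 0.081 and 0.0817. Hexa, Gaa and Gla, whose loss causes Tay-Sachs, Pompe and Fabry disease, were not called.

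Of the 7 genes that handle lipids, Npc2 had the smallest adjusted p of all 50 in both co-cultures. Npc2 (chr12:84754562-84773152, GRCm38) encodes the soluble lysosomal protein that hands cholesterol to the membrane protein NPC1. It was at 111, 127 and 113 in cells alone, 181, 229 and 204 with TRMs, and 241, 256 and 228 in monocyte co-culture. The co-culture libraries all lay above cells alone. The rise was 1.75-fold with TRMs (log2 0.80, SE 0.13, limma adjusted p = 0.000996) and 2.07-fold with monocytes (log2 1.05, SE 0.13, limma adjusted p = 0.00011). Without any single library the log2 fold change stayed between 0.72 and 0.89 with TRMs and between 1.00 and 1.11 with monocytes, always called. Npc1, its partner, was at 22.5 to 27.5 alone, 21.1 to 26.8 with TRMs and 24.3 to 25.9 with monocytes, and was not called (log2 -0.08 and -0.02).

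Smpd1, the acid sphingomyelinase, was at 60.8, 48.6 and 64.8 in cells alone and at 86.7, 78.3 and 71.0 with monocytes, without overlap (log2 0.44, SE 0.15, limma adjusted p = 0.0461). This call was lost with edgeR (adjusted p = 0.0506), with library totals (limma adjusted p = 0.07), with the 2 groups alone (0.0735), and without any one library except monocyte replicate 3 (0.052 to 0.154). Psap, the precursor of the saposins that present sphingolipids to their hydrolases, was at 501, 586 and 591 alone, 644, 849 and 691 with TRMs, and 771, 803 and 641 in monocyte co-culture. Its groups did not overlap, yet limma's adjusted p was 0.0994 and 0.0619. DESeq2 called it with monocytes (adjusted p = 0.0383). Asah1, Lipa and Ppt1 were not called in either co-culture, with log2 fold changes between -0.26 and 0.13.

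Among the 5 membrane proteins, Cd63, a tetraspanin of late endosomes and exosomes, was called with monocytes. It was at 167, 279 and 201 in cells alone and at 361, 353 and 343 with monocytes, all above cells alone. This was 1.67-fold (log2 0.74, SE 0.17, limma adjusted p = 0.00564), and the call held in every alternative run. Its exons share 11.1% of their 50-base stretches with other annotated genes, most with Cd63-ps. With TRMs it was at 268, 327 and 291, where TRM replicate 1 lay below alone replicate 2 (log2 0.48, limma adjusted p = 0.064), and without alone replicate 2 it was called (0.00645). Lamp1, the most abundant of the 50 genes per kilobase of exon (276), was at 666 to 875 in cells alone, 681 to 801 with TRMs and 699 to 796 with monocytes, with log2 fold changes of -0.02 and 0.05. It shares 5.9% of its 50-base stretches with Grtp1. Lamp2, which also serves chaperone-mediated autophagy, was low in monocyte replicate 1 (177, beside 356 and 312 in the other two) and was not called (limma adjusted p = 0.156). Scarb2, the receptor that carries beta-glucocerebrosidase, and Mcoln1, the calcium channel TRPML1, were not called.

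**Figure D2:**
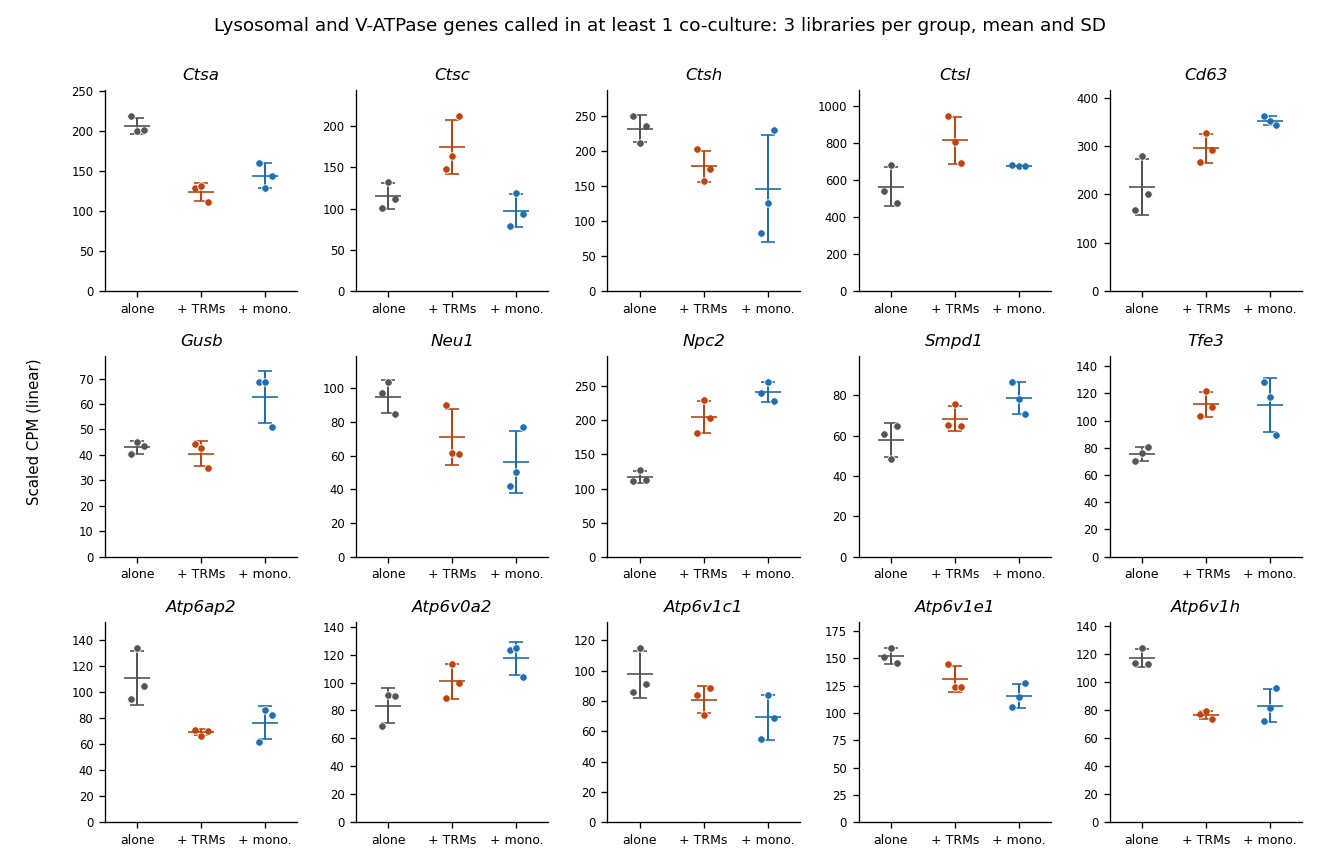
Levels in scaled CPM on linear axes from 0 are plotted for the 15 genes called in at least 1 co-culture, with 3 points per group, the mean as a horizontal line and the SD as a bar. Npc2 and Tfe3 lie higher and Ctsa, Atp6ap2 and Atp6v1h lower in both co-cultures than alone, while Ctsc is high with TRMs and Gusb with monocytes.

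Of the transcription factors, Tfe3 rose in both co-cultures and Tfeb did not pass the test. Tfe3 (chrX:7762560-7775202, GRCm38) was at 70.3, 76.1 and 80.5 in cells alone, 104, 122 and 110.0 with TRMs, and 128, 117 and 89.5 in monocyte co-culture. All co-culture libraries exceeded all libraries of cells alone. The rise was 1.48-fold with TRMs (log2 0.56, SE 0.15, limma adjusted p = 0.0206) and 1.46-fold with monocytes (log2 0.55, limma adjusted p = 0.017). The TRM call needed alone replicate 1 (0.0817 without it) and TRM replicates 2 (0.1) and 3 (0.0531), and the monocyte call needed alone replicate 1 (0.0706) and monocyte replicates 1 (0.0605) and 2 (0.0599). Tfeb was at 25.7, 17.4 and 34.4 alone, 26.4 to 33.9 with TRMs and 26.9 to 34.9 with monocytes, overlapping throughout (limma adjusted p 0.416 and 0.307). These are RNA levels, and the location or activity of the proteins was not measured. Of the 7 genes with TCACGTGA near their start, Ctsa alone was called. Ctsa fell in both co-cultures, where 8.15% of all genes fell with TRMs and 12.7% with monocytes. The median log2 fold change of the 7 was -0.19 with TRMs and -0.33 with monocytes. For the 27 genes with an entry and no CACGTG it was 0.03 and 0.05. For the 13 genes with CACGTG, which include the 7, it was -0.13 and -0.16. The 10 genes without an entry, whose promoters were not searched, had medians of -0.07 and -0.33. The 7 include the V-ATPase genes Atp6v1a, Atp6v0d1 and Atp6v0e, and the part of gene role in these medians was not tested.

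In the V1 sector of the V-ATPase few subunits passed the test, and those that did fell. With TRMs 1 of its 9 genes, Atp6v1h, was called lower, beside 8.15% of all genes, and 8 of 9 had a log2 fold change below 0 (median -0.26, beside -0.0019 for all genes). With monocytes 3 of 9 were called lower, Atp6v1h, Atp6v1c1 and Atp6v1e1, beside 12.7% of all genes, and 9 of 9 lay below 0 (median -0.40, beside -0.016). Groups did not overlap for 4 of the 9 with TRMs and 5 of the 9 with monocytes, beside 39.3% and 40.5% of all genes. The summed level of the 9 genes was 803, 957 and 806 in cells alone, 767, 678 and 709 with TRMs, and 551, 719 and 711 in monocyte co-culture. These sums did not overlap between cells alone and either co-culture. Alone replicate 2 had the highest value for 8 of the 9 V1 genes and monocyte replicate 1 the lowest for 7 of 9. Over all 50 genes, V1 included, these libraries were highest and lowest for 18 genes each, and alone replicate 1, which was lowest for no V1 gene, was lowest for 11. The part of single libraries in the V1 values was not tested beyond the calls given here.

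Atp6v1h, the regulatory subunit H (chr1:5070018-5162529, GRCm38), was at 113, 125 and 113 in cells alone, 77.6, 79.2 and 73.5 with TRMs, and 72.3, 81.8 and 95.8 in monocyte co-culture. Neither co-culture overlapped cells alone. The log2 fold change was -0.61 with TRMs (SE 0.14, limma adjusted p = 0.00786) and -0.50 with monocytes (limma adjusted p = 0.0163). The TRM call held without any single library, and the monocyte call was lost without monocyte replicate 1 (0.052).

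Atp6v1c1, subunit C of the stalk, was at 86.1, 115 and 91.3 alone and at 54.8, 84.1 and 68.8 with monocytes (log2 -0.50, limma adjusted p = 0.0493). This call was lost with edgeR (adjusted p = 0.0567), with the 2 groups alone (limma adjusted p = 0.074) and without any one library except monocyte replicate 2 (0.057 to 0.168). Atp6v1e1, a stator subunit, was at 151, 159.8 and 145 alone and at 105, 115 and 127 with monocytes (log2 -0.40, limma adjusted p = 0.0363). Its call was lost with the 2 groups alone (limma adjusted p = 0.0563), without any one library of cells alone, without TRM replicate 2, and without monocyte replicate 1 or 2 (0.0521 to 0.0947). With TRMs these 2 genes had log2 fold changes of -0.26 and -0.22 and were not called. Atp6v1a and Atp6v1b2, the catalytic and nucleotide-binding subunits, were not called either, although all 3 monocyte values of Atp6v1b2 (122, 169 and 155) lay below all of cells alone (183, 216 and 188, limma adjusted p = 0.0524, DESeq2 adjusted p = 0.025).

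The V0 sector held genes on both sides of no change, with a median log2 fold change of -0.06 with TRMs and -0.31 with monocytes. The medians over all genes were -0.0019 and -0.016. The V0 medians include Atp6v0a4, Atp6v0c and Atp6v0d2, whose mean levels were under 5. With monocytes their log2 fold changes were -0.58, -1.84 and -2.58. Of the other V0 genes, Atp6v0a1, Atp6v0a2 and Atp6v0b lay above 0 with monocytes (0.15, 0.50 and 0.05). Atp6v0d1 and Atp6v0e lay below (-0.29 and -0.33). The 8 V0 genes included 1 called gene, Atp6v0a2, an isoform of the a subunit that spans the membrane. Its call was with monocytes, where 14.7% of all genes were called higher. Atp6v0a2 was at 69.2, 90.9 and 90.4 in cells alone and rose to 123, 125 and 104 with monocytes (log2 0.50, SE 0.15, limma adjusted p = 0.0297). All 3 monocyte libraries lay above cells alone, but it was no longer called without alone replicate 1 (0.144) or monocyte replicate 1 (0.0738) or 2 (0.0935). With TRMs it was at 89.1, 114 and 99.7 (log2 0.28, limma adjusted p = 0.247). Of its 50-base stretches 8.35% are shared with 4930404A12Rik. Atp6v0a1, the more abundant a isoform, was at 221, 317 and 226 alone, 327, 375 and 300.1 with TRMs, and 292, 293 and 255 in monocyte co-culture, and was not called (limma adjusted p 0.0902 and 0.497). Per kilobase of exon, Atp6v0a1 gave 52.0 to 67.1% of the a-subunit RNA in cells alone, 60.4 to 62.8% with TRMs and 53.7 to 57.2% with monocytes, counted over Atp6v0a1, Atp6v0a2, Atp6v0a4 and Tcirg1, the a3 isoform whose symbol lies outside the name rule.

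The remaining V0 subunits were not called. Atp6v0d1 gave 98.7 to 99.99% of the d-subunit RNA per kilobase, and in V1 Atp6v1g1 gave 98.5 to 99.5% of the G-subunit RNA, so the tissue-restricted isoforms Atp6v0d2 and Atp6v1g2 were low. Atp6v1g1 shares 19.2% of its 50-base stretches with other annotated genes, most with Gm13453, so part of its count is uncertain. Atp6v0c, the proton-carrying ring subunit, was at 2.51 to 3.5 alone, 1.56 to 2.16 with TRMs and 0.273 to 1.57 with monocytes, and shares 10.8% of its 50-base stretches with its annotated pseudogenes, so its level is uncertain. It was not called (limma adjusted p = 0.0560 with monocytes).

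The 2 accessory proteins went different ways. Atp6ap2, the prorenin receptor, which is needed to assemble the pump, was at 94.7, 134 and 105 in cells alone, 71.0, 66.6 and 70.6 with TRMs, and 61.9, 86.0 and 82.3 in monocyte co-culture. All co-culture libraries lay below cells alone. It fell by 0.66 on the log2 scale with TRMs (SE 0.17, limma adjusted p = 0.0139) and by 0.53 with monocytes (limma adjusted p = 0.0298). With TRMs it was no longer called without alone replicate 2 (0.0545) or TRM replicate 2 (0.0624), nor with monocytes with the 2 groups alone (0.0548) or without alone replicate 2 (0.113), alone replicate 3 (0.0645) or monocyte replicate 1 (0.104). Atp6ap1, the partner protein Ac45, was at 192 to 217 alone, 234 to 257 with TRMs and 216 to 242 with monocytes and was not called (limma adjusted p 0.162 and 0.282).

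**Figure D3:**
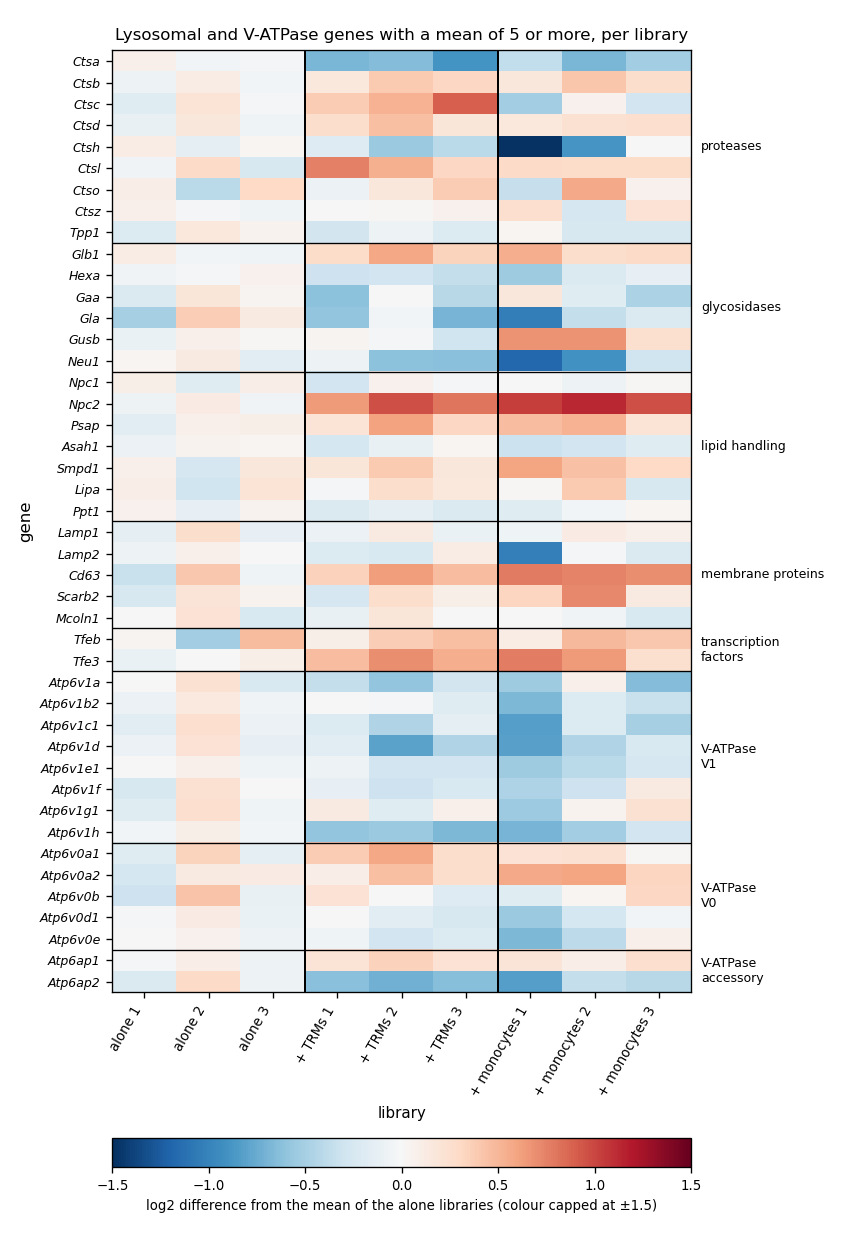
Each cell gives the log2 difference of 1 library from the mean of the 3 libraries of cells alone, for the 44 genes with a mean of at least 5, with red for higher and blue for lower values. The V1 genes are mostly blue in both co-cultures and red in alone replicate 2, and Npc2 is red in all 6 co-culture libraries.

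Between the co-cultures, no gene of the 50 was called by limma, where 0.325% of all genes were higher with TRMs and 0.073% lower. Over all genes these calls were 40 higher and 9 lower, and leaving out any single library gave from 0 (without TRM replicate 2) to 106 higher (without monocyte replicate 3) and from 0 to 38 lower. Over all genes edgeR called 34 higher and 10 lower, and DESeq2 called 194 and 135. Among the 50, limma gave 4 at an unadjusted p under 0.05, edgeR called none after adjustment, and DESeq2 called 2. These were Ctsc, 1.80-fold higher with TRMs than with monocytes (log2 0.85, SE 0.18, limma adjusted p = 0.0634, DESeq2 adjusted p = 0.00145), and Gusb, lower with TRMs (log2 -0.62, SE 0.17, limma adjusted p = 0.13, DESeq2 adjusted p = 0.0291). Ctsc was also called by limma-voom (adjusted p = 0.0481), and Gusb by limma without monocyte replicate 3 (adjusted p = 0.0458). The TRM and monocyte libraries did not overlap for 6 of the 50 genes (12.0%), beside 16.2% of all genes: Ctsc, Ctsl, Cd63, Gusb, Atp6v0a1 and Atp6v1b2. For Npc2 and Tfe3 the co-cultures differed by log2 -0.24 (SE 0.13) and 0.02 (SE 0.15). The median difference over the 50 genes was 0.01, and 44 of 50 lay within 0.5 log2 units, a share not taken over all genes.

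Of the 50 genes, 46 appear in the authors' deposited tables, which compare each co-culture with cells alone. For TRMs the authors' deposited table called 9 of them at a false discovery rate under 0.05, 4 higher and 5 lower, where it called 23.7% of its genes. These included all 7 named above, in the same direction, plus Ctsh (0.0397) and Atp6v1a (0.0445), both lower. For monocytes the authors' deposited table called 12, 5 higher and 7 lower, beside 28.2% of its genes. It shared 11 of the 13 calls given here, left out Ctsh (0.0639) and Smpd1 (0.0787), and added Atp6v1b2 (0.0497).

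Genes that act on this pathway from outside the 50 were read from lists of related function. In the list of MiT/TFE control and lysosomal nutrient sensing, 0 of 18 rose and 2 fell with TRMs, and 1 rose and 3 fell with monocytes, beside 10.2% higher and 8.15% lower of all genes with TRMs and 14.7% and 12.7% with monocytes. Flcn and Fnip1, whose protein complex lets mTORC1 restrain TFE3 and TFEB, fell in both. Flcn was at 58.8, 83.8 and 67.2 alone, 37.3, 54.1 and 33.1 with TRMs, and 44.8, 50.8 and 40.5 in monocyte co-culture (log2 -0.77 and -0.61, limma adjusted p 0.0166 and 0.0353). Fnip1 was at 38.8, 79.4 and 42.1 alone, 24.2 to 31.3 with TRMs and 14.2 to 30.9 with monocytes (log2 -0.94 and -1.29, limma adjusted p 0.0433 and 0.00628). Co-culture values of both genes lay below all of cells alone. Flcn was no longer called with TRMs when alone replicate 2 or TRM replicate 1 or 3 was left out (0.0527 to 0.0757), nor with monocytes when alone replicate 2 or 3 or monocyte replicate 1 or 3 was (0.0739 to 0.125). Fnip1 was no longer called with TRMs when alone replicate 2 or 3 or any one TRM library was left out (0.0621 to 0.162).

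Mitf, the third transcription factor of the family measured here, was low at 1.14, 2.74 and 1.25 alone. It was at 3.97, 2.98 and 4.91 with TRMs (log2 1.30, limma adjusted p = 0.0515) and rose to 6.67, 5.42 and 4.61 with monocytes (log2 1.81, limma adjusted p = 0.00728). Neither co-culture overlapped cells alone. With TRMs, Mitf was called without alone replicate 2 (0.0146) or monocyte replicate 3 (0.0449), with DESeq2 (adjusted p = 0.0435) and with a pseudocount of 1 (limma adjusted p = 0.0483). Tsc1, an inhibitor of mTORC1, fell with monocytes (log2 -0.60, limma adjusted p = 0.0107), a call lost without alone replicate 1 (0.0616).

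Mannose 6-phosphate tagging and sorting is the route by which hydrolases reach the lysosome. In its list 2 of 17 rose and 4 fell with TRMs, beside 10.2% and 8.15% of all genes. With monocytes 2 rose and 3 fell, beside 14.7% and 12.7% of all genes. Sort1, the sorting receptor sortilin, was at 94.4, 70.5 and 133 alone, 32.7, 26.0 and 26.4 with TRMs, and 34.9, 28.0 and 60.4 in monocyte co-culture. It fell 3.41-fold with TRMs (log2 -1.77, limma adjusted p = 0.00066) and 2.47-fold with monocytes (log2 -1.30, limma adjusted p = 0.00341), without overlap. Igf2r, the large mannose 6-phosphate receptor, fell in both (log2 -0.65 and -0.68, limma adjusted p 0.0257 and 0.0145). Its TRM call was lost without any one library except TRM replicate 2 among those compared (0.0507 to 0.0992), and its monocyte call without alone replicate 3 (0.0611) or monocyte replicate 1 (0.0564). Gnptab, which makes the tag, fell with TRMs (log2 -0.78, limma adjusted p = 0.0144), a call lost without alone replicate 3 (0.0713). Ap1m1 and Ap1s1, subunits of the AP-1 clathrin adaptor, rose in both. Ap1m1 had log2 fold changes of 0.68 and 1.06 (limma adjusted p 0.00825 and 0.000302), and without TRM replicate 2 its TRM call was lost (0.0537). Ap1s1 had log2 fold changes of 0.68 and 0.90 (limma adjusted p 0.00787 and 0.000973).

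**Figure D4:**
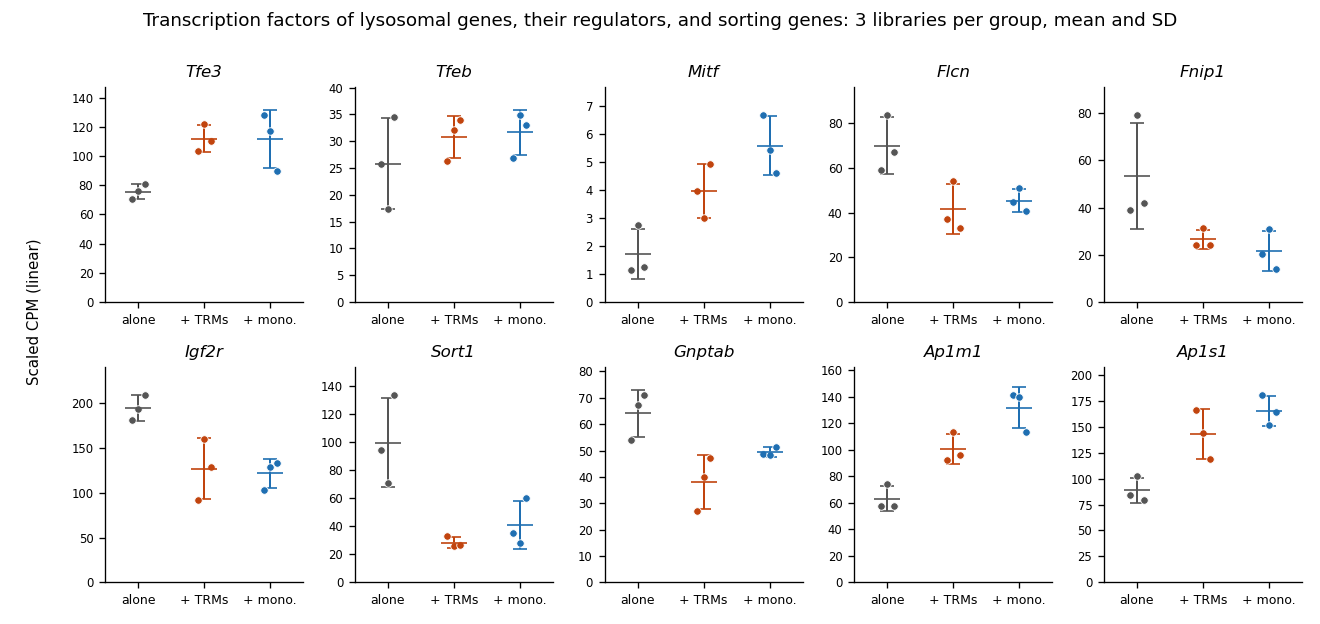
Levels in scaled CPM, on linear axes from 0, are plotted for Tfe3, Tfeb, Mitf, Flcn and Fnip1 and for 5 sorting genes, with 3 points per group, the mean as a line and the SD as a bar. Tfe3, Ap1m1 and Ap1s1 lie higher, and Flcn, Fnip1, Igf2r and Sort1 lower, in all co-culture libraries than in cells alone.

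Other lysosomal hydrolases and activators outside the 50 also went both ways. With TRMs 1 of 22 rose and 2 fell, beside 10.2% and 8.15% of all genes. With monocytes 2 rose and 5 fell, beside 14.7% and 12.7% of all genes. Dpp7, a dipeptidyl peptidase, was at 45.5, 46.1 and 39.0 alone, 18.2 to 26.1 with TRMs and 20.1 to 22.2 with monocytes, falling by 0.99 and by 1.03 on the log2 scale (limma adjusted p 0.00199 and 0.00107). Pla2g15, a lysosomal phospholipase, rose by 0.72 and 0.73 on that scale (limma adjusted p 0.0128 and 0.00821), and its TRM call was lost without TRM replicate 2 (0.0827). Manba, the beta-mannosidase, fell with monocytes (log2 -0.85, limma adjusted p = 0.00164) and not with TRMs (log2 -0.17, limma adjusted p = 0.51). Galc, which cleaves galactosylceramide, fell in both (log2 -0.53 and -0.72, limma adjusted p 0.0377 and 0.00516), but its TRM call was lost without any one library of cells alone or with TRMs (0.0626 to 0.123). No gene of these related lists was called by limma between the co-cultures, while DESeq2 called Manba (adjusted p = 0.00682), as did limma without alone replicate 2 (0.0414).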

How the data were processed

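RNA of sorted GFP-positive cells was amplified with SMART-Seq v4 from 1 ng per sample, per the labels' protocols, a kit not stated there to mark strand. STAR 2.5, edgeR and the mm10 build are named in the submitters' processing notes. For the counter and the annotation, the sources used here give no name. The authors' values table holds a normalized signal for 12339 genes. In every case (100% of 111051 values, tolerance 1e-06 of a read) the deposited signal was a whole number of reads plus 0.5, divided by a scaled library size and given as CPM. The authors' deposited tables of comparisons hold log2 fold changes, a likelihood ratio score, p-values and false discovery rates, per the file headers, and were used to compare calls alone.

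edgeR's filterByExpr (minimum count 10, minimum total 15) removed 13 genes and left 12326. The log2 of the deposited signal was tested with limma 3.58.1 in R 4.3.3, with a variance trend on mean level, over all 9 libraries (6 residual degrees of freedom), two-sided, with Benjamini-Hochberg adjustment over all genes. The planned test was edgeR's on counts. Since the deposited values are scaled and not counts, limma took its place, and edgeR 4.0.16 and DESeq2 1.42.0 on the recovered reads became alternatives, beside voom, another pseudocount, 2 other filters, library totals, the 2 groups alone, the replicate block and each library left out. The added 0.5 read weighs most on the fold changes of low genes, which also differ between the tools.

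Replicates differed beyond sampling noise (chi-square per gene 21.1 to 90.1), so each counted as 1. Levels per kilobase use summed exon length from GENCODE M21 (GRCm38). On simulated counts of 12326 genes with known changes in some, the procedure called 55% of genes changed 2-fold and 84% of those changed 4-fold for TRMs against alone, and 61% and 85% for monocytes against alone. Far fewer genes were changed in the simulation than were called in the data. All called members but Npc2 with monocytes changed less than 2-fold, so these shares do not give the power of the reported tests. The genes named are the members, with values by library for those called, and from each list of related genes at least the 3 called with the smallest p in each co-culture. Igf2r, Gnptab, Ptprc, Siglecf and Plac8 were added after their values were seen. The members and lists were chosen with earlier results of these data known.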

Additional observations from a re-analysis of the deposited data

How the results depend on the processing

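The members' counts moved most with single libraries left out. With TRMs, 1 to 6 genes were higher, 2 to 3 lower, and the median log2 fold change ran from -0.143 to -0.0152. With monocytes, 2 to 7 were higher, 2 to 8 lower, and the median ran from -0.133 to -0.0604. Between the co-cultures 0 were higher, 0 to 1 lower, and the median ran from -0.0508 to 0.0488. Library totals gave 2 genes higher with TRMs and a median of -0.159. Fitting the 2 groups alone gave 3 lower with monocytes. Between the co-cultures DESeq2 gave 1 higher and 1 lower, beside 194 and 135 of all genes, and voom 1 higher, beside 57. The causes were not tested. Whether replicate numbers pair the libraries was not settled, and the main fit did not pair them. The correlation of same-numbered deviations ran from -0.0246 to 0.429, and that of differently numbered ones from -0.401 to 0.265. With the replicate number as a block, 6 genes were higher with TRMs, 6 higher and 9 lower with monocytes, and 1 higher between the co-cultures (Ctsc, limma adjusted p = 0.0364). Cd63 with TRMs was then called (0.0375) and Smpd1 with monocytes was not (0.0567). No named gene reversed direction in a called comparison. Depth limits 6 genes with a mean under 5 most (Ctsf, Ctss, Atp6v0a4, Atp6v0c, Atp6v0d2 and Atp6v1g2), whose standard errors were the largest of the 50.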

Other observations

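Of 20 autophagy genes tested, which serve to deliver cargo to lysosomes, 0 rose and 2 fell with TRMs, and 1 rose and 1 fell with monocytes. Of all genes, 10.2% rose and 8.15% fell with TRMs, and 14.7% and 12.7% with monocytes. Gabarapl1, a member of the family that coats autophagosomes, was at 130.2, 109.9 and 126 in cells alone, 70.2 to 87.1 with TRMs and 73.3 to 94.8 with monocytes, so that all co-culture libraries lay below cells alone (log2 -0.64 and -0.51, limma adjusted p 0.00847 and 0.0204). The monocyte call was lost without alone replicate 1 or 3 or monocyte replicate 1 (0.0682 to 0.0838). Uvrag, which acts in autophagosome maturation, fell with TRMs (log2 -0.59, limma adjusted p = 0.0272), a call lost without any one library of cells alone or with TRMs (0.0526 to 0.0931). Wipi2, which acts early in autophagosome formation, rose with monocytes (log2 0.43, limma adjusted p = 0.0395). Its call was lost with library totals (0.0538), with the 2 groups alone (0.0507), and with any one of alone replicates 1 and 2, TRM replicate 3 and monocyte replicates 1 and 2 left out (0.0538 to 0.166).

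Among 18 other lysosomal membrane and transport genes, 0 rose and 2 fell with TRMs, beside 10.2% and 8.15% of all genes. With monocytes 1 rose and 4 fell, beside 14.7% and 12.7% of all genes. Ctns, the cystine exporter, was at 23.7, 29.6 and 29.3 alone, 13.5 to 17.1 with TRMs and 8.89 to 15.7 with monocytes (log2 -0.85 and -1.10, limma adjusted p 0.0246 and 0.00417), with no overlap in either comparison. Its TRM call was lost without alone replicate 2 or 3 or any one TRM library (0.0541 to 0.0949). Laptm4b, a membrane protein of late endosomes and lysosomes, fell in both (log2 -0.49 and -0.41, limma adjusted p 0.0195 and 0.0351). With TRMs its call was lost with any one of alone replicates 1 and 3 and TRM replicates 2 and 3 left out (0.0521 to 0.0849). With monocytes it was lost with the 2 groups alone (0.0532) and without any one library of cells alone, TRM replicate 2, or monocyte replicate 2 or 3 (0.053 to 0.122). Tmem175, a lysosomal potassium and proton channel, rose with monocytes (log2 0.77, limma adjusted p = 0.019), and Slc38a9, the arginine sensor of mTORC1, fell (log2 -1.11, limma adjusted p = 0.0218). Both of these calls were lost without monocyte replicate 1 (0.0708 and 0.0719) and without 1 library of cells alone, replicate 1 for Tmem175 (0.088) and replicate 3 for Slc38a9 (0.0971).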
